A study of Mus musculus with 16 samples.

Results

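Peaks found only in newborn germ cells numbered 13848 of the 67258 peaks in the list of postnatal day 0 (P0), or 20.6% (95% interval 20.3 to 20.9), and of 302829 peaks in the 6 distinct lists of the study. They were chosen by one measured property, presence in the lists: a P0 peak was kept when it overlapped by 1 bp or more no peak of the embryonic stages E13.5 and E16.5, of either genotype, and no peak of postnatal day 3 (P3). They are called P0-only peaks here. A region missing from a list is a region where no peak was called, which is not a measurement of closed chromatin. Shares of peaks are given with 95% Wilson intervals and differences between shares with Newcombe intervals. These intervals cover counting error over peaks only, since each group has 1 list and no spread between samples could be measured.

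The study measured accessible chromatin in male germ cells of the mouse testis by ATAC-seq, in which a transposase cuts and tags open DNA. The 16 samples form 8 groups of 2, Morc1 (+/-) and Morc1 (-/-) cells from each of E13.5, E16.5, P0 and P3. All animals carried the Mvh-Venus transgene, a fluorescent reporter of germ cells driven by Mvh (Ddx4). The P0 files of both genotypes were identical in all 67258 rows and the P3 files in all 44760 rows, so no genotype is attached to either. The lists hold positions without heights, scores or read counts, so depth is unknown, and how the 2 samples of a group were combined is not given in the sources used here.

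Gonocytes are the precursors of spermatogonia in the testis before and just after birth. In the fetus they stop dividing and rebuild the DNA methylation that their precursors had erased, while small RNAs and the MORC1 protein help to silence transposons. After birth they move to the base of the seminiferous cords, divide again and give rise to the spermatogonia from which sperm production starts. Open regions seen by ATAC-seq are mostly promoters, which tend to be rich in CpG and open in many cell types, and distal elements such as enhancers, which differ more between cell types and stages.

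The P0-only peaks met few promoters. Of 32851 promoter windows in a RefSeq table (assembly GRCm38.p6, 250 bp before to 50 bp after a transcription start), 342 (1.04%) were met by a P0-only peak, against 13222 (40.2%) met by any P0 peak. The 342 windows belonged to 319 genes, 169 of them protein-coding and 150 long non-coding. The windows below belong to the 6 protein-coding genes whose start lay closest to the centre of a P0-only peak (3 to 8 bp), and to the beta-globin gene Hbb-bs, which was added after its values were seen because it holds 3 different motifs. They show the DNA under these peaks, written 5′ to 3′ on the strand of the gene. Capitals mark motifs on either strand. They are the box CCAAT that NF-Y binds, the motif CCGGAAG of ETS factors, the motif ACAAAG of SOX factors, the motif AGGTGTGA of T-box factors, the motif GATAAG of GATA factors and the motif TGANTCA of the AP-1 factors.
Cd3e, chr9:45009562-45009861, minus strand: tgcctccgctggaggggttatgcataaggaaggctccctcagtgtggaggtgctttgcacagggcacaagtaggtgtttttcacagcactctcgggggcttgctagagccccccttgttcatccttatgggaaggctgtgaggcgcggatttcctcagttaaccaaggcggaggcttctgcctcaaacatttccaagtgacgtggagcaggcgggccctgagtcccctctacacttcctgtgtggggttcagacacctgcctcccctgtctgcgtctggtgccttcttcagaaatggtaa
Fcer1g, chr1:171234300-171234599, minus strand: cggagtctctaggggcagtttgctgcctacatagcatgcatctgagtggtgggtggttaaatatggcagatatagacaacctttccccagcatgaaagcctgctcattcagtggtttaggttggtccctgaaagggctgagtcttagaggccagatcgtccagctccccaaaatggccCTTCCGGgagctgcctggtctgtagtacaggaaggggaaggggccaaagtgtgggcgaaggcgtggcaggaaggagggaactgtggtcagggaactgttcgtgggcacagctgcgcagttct
Fgr, chr4:132973845-132974144, plus strand: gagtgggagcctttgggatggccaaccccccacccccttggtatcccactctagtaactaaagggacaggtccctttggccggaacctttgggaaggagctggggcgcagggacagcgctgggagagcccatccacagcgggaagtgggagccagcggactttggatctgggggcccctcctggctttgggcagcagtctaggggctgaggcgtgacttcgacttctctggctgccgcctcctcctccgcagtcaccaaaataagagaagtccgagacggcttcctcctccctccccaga
Atp1b4, chrX:38315872-38316171, plus strand: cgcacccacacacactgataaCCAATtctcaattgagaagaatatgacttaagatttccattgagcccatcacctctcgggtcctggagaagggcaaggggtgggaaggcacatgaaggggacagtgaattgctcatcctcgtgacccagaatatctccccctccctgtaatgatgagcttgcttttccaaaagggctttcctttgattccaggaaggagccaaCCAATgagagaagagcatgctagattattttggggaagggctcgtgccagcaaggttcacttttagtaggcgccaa
Lmo3, chr6:138581919-138582218, minus strand: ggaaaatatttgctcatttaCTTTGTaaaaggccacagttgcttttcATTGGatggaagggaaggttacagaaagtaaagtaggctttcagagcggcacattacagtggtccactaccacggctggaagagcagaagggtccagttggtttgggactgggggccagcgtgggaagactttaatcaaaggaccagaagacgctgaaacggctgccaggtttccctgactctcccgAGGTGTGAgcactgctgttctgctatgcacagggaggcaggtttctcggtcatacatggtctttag
D17H6S53E, chr17:35126152-35126451, plus strand: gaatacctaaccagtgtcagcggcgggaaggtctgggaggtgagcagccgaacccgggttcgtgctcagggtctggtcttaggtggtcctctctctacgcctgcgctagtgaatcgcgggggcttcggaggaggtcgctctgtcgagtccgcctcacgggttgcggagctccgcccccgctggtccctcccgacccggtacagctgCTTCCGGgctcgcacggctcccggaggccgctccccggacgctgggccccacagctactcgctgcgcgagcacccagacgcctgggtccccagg
Hbb-bs, chr7:103827879-103828178, minus strand: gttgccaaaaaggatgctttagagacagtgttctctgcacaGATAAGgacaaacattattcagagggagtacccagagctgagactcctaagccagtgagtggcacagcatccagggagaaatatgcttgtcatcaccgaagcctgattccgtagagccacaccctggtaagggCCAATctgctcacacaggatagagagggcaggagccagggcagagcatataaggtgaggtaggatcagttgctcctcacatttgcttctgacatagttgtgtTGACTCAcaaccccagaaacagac

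Among the windows shown are those of 4 genes of blood cells, Hbb-bs and 3 others. Cd3e encodes a chain of the T cell receptor complex, Fcer1g the signalling chain shared by several Fc receptors, and Fgr a tyrosine kinase of the Src family found in myeloid cells. Atp1b4 belongs to the beta subunit family of the sodium and potassium pump, and Lmo3 encodes a LIM-domain protein. The Cd3e peak (chr9:45009358-45009858) was centred 3 bp from the start, and a further P0-only peak lay upstream at chr9:45010540-45011040. The nearest peak of any other list was 11783 bp from the upstream peak. The GC content of the windows ran from 49% in Atp1b4 to 69.3% in D17H6S53E. The CpG observed to expected ratio, which is low where methylated CpG has been lost in evolution, was 0.832 in D17H6S53E and lay between 0.108 (Hbb-bs) and 0.389 (Lmo3) in the other 6 windows. In Hbb-bs a GATA motif stood 209 bp and a CCAAT box 76 bp before the start, and an AP-1 motif 26 bp after it. Fcer1g and D17H6S53E held the ETS motif 72 and 44 bp before the start. No searched motif was present in the Cd3e and Fgr windows, which says only that these letters are not there.

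P0-only peaks also covered microRNA hairpins. Of 1005 hairpins in the RefSeq table, 14 (1.39%) overlapped a P0-only peak, under 11 different peaks, and 74 (7.36%) overlapped any P0 peak. The 14 of 74 are near the 20.6% of all P0 peaks that were P0-only, so hairpins were not set apart. The mature sequences below come from 3 loci with a known tissue association: miR-142, abundant in blood cells; a part of the miR-290 cluster, which is active in early embryos and germ cells; and miR-200c, abundant in epithelia. Capitals mark the seed, bases 2 to 8, which pairs with targets.
miR-142a-3p: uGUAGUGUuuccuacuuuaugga
miR-142a-5p: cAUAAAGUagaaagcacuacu
miR-291b-3p: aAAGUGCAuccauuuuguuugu
miR-292a-5p: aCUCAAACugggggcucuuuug
miR-292b-5p: aCUCAAAAccuggcggcacuuuu
miR-200c-3p: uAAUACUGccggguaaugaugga

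The 24 mature microRNAs of the 14 hairpins had 24 different seeds, so none shared a full seed with another. The miR-142 peak (chr11:87756891-87757391) lay 6077 bp from the nearest peak of any other list. One peak (chr7:3218986-3219486) covered the hairpins of Mir292 and Mir292b, which lie on opposite strands, and touched that of Mir291b. Another list had a peak 960 bp away from it, within the same stretch of chromosome 7. The miR-200c peak (chr6:124718383-124718883) was close to the limit of the rule, with a peak of another list 329 bp away. The remaining hairpins included the muscle microRNA gene Mir499 (chr2:155622649-155623149) and the neighbouring Mir344 and Mir344f on chromosome 7.

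P0 peaks were most often shared with all other lists or with none. The P0 list was the longest, and a deeper library, a lower calling threshold and more open chromatin at this stage cannot be told apart. Of all P0 peaks, 13848 were in none of the other 5 lists, 9492 in 1, 10856 in 2, 11627 in 3, 4285 in 4 and 17150 in all 5. By the matching rule for the other stages, 7.57% of the P3 list was P3-only, 14.8% of the E16.5 heterozygous list was E16.5-only and 30.4% of the E13.5 heterozygous list was E13.5-only. The shares of the knockout lists were 15.1% at E16.5 and 29.3% at E13.5. The E13.5 and E16.5 sets were held against 4 lists and the P0 and P3 sets against 5.

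**Figure D1:**
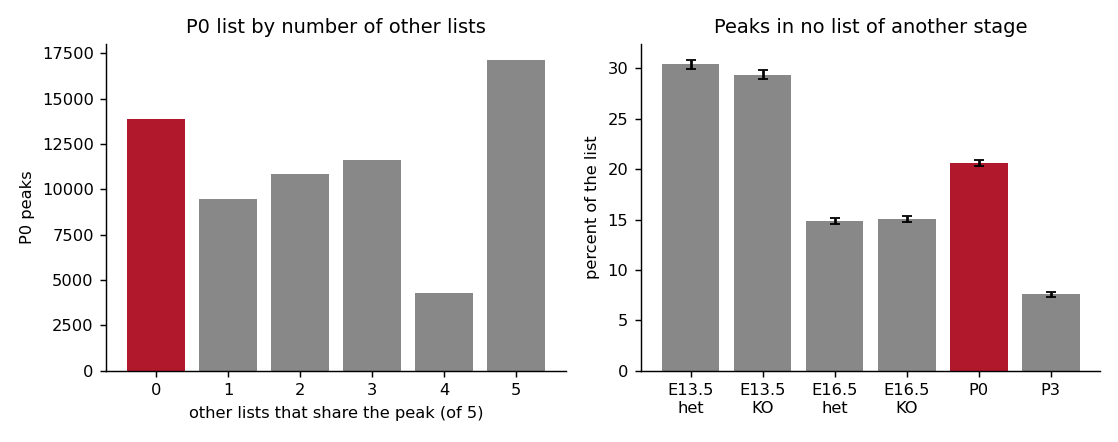
Left, number of P0 peaks (bars) by how many of the 5 other lists share them, with the 13848 P0-only peaks in red. Right, percent of each list that overlaps no list of another stage, with 95% Wilson intervals over peaks; P0 stands at 20.6%, between E13.5 (30.4% and 29.3%) and E16.5 (14.8% and 15.1%).

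The rule removes every P0 peak that overlaps another list, so a gap to the other lists is given in advance. The median gap to the nearest peak of any other list was 9392 bp (quartiles 4328 and 18966). Such a peak lay within 10 kb of 52.6% of P0-only peaks. Within the P0 list itself, the median gap to the next peak was 11.3 kb for P0-only and 12.3 kb for other P0 peaks. Just inside the rule, 266 P0-only peaks had another list's peak within 100 bp, 922 within 500 bp and 1412 within 1000 bp. Just outside it, 338 P0 peaks were left out although their largest overlap was under 100 bp. The nearest E16.5 peak was a median of 14564 bp (knockout) or 15454 bp (heterozygous) away and the nearest P3 peak 18259 bp. The nearest E13.5 peak was a median of 37534 bp (heterozygous) or 40083 bp (knockout) away.

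P0-only peaks lay between genes more often than the other P0 peaks and far less often at gene ends. Between genes lay 63.3% of P0-only peaks (62.5 to 64.1) against 44.97% of other P0 peaks, a difference of 18.3 percentage points (17.4 to 19.2). Within 1000 bp of an outer end of an annotated gene lay 12.3% (11.7 to 12.8) against 30.7%, a difference of -18.4 points (-19.1 to -17.7). Inside genes the sets were alike in share, at 24.5% and 24.4%, with a difference of 0.10 points (-0.70 to 0.91). A transcription start lay within 1000 bp of 4.47% of P0-only peaks and 23.0% of other P0 peaks, among the 13320 and 51904 peaks on chromosomes for which the table holds starts (all but chromosome 18). The median distance to a start was 63.4 kb for P0-only and 27.0 kb for other P0 peaks. More than 100 kb from any start lay 41.2% of P0-only peaks (40.4 to 42.0) and 29.1% of the others (28.7 to 29.5).

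Few peaks of any private set lay at starts, and the median distance to a start was largest for P0-only peaks. A start lay within 1000 bp of 4.54% of E13.5-only, 4.07% of E16.5-only and 4.72% of P3-only peaks, and the interval of the difference from P0-only peaks included 0 in all 3 cases. The median distance to a start was 29.9 kb for E13.5-only, 51.5 kb for E16.5-only and 35.7 kb for P3-only peaks, against 63.4 kb for P0-only peaks. More than 100 kb from a start lay 20.1%, 36.2% and 25.1% of these sets, against 41.2% of P0-only peaks. Peaks between genes were more frequent in the P0-only set by 25.1 points than among E13.5-only peaks (23.9 to 26.3), by 19.6 points than among P3-only peaks (17.7 to 21.4) and by 10.8 points than among E16.5-only peaks (9.40 to 12.1). Peaks inside genes were fewer: 24.5% of P0-only peaks against 52.5%, 46.1% and 37.7% of E13.5-only, P3-only and E16.5-only peaks. At gene ends, however, P0-only peaks were slightly more frequent than in each of these sets. The difference was 2.88 points from E13.5-only (2.13 to 3.63), 2.06 from P3-only (0.87 to 3.19) and 2.44 from E16.5-only peaks (1.58 to 3.29).

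**Figure D2:**
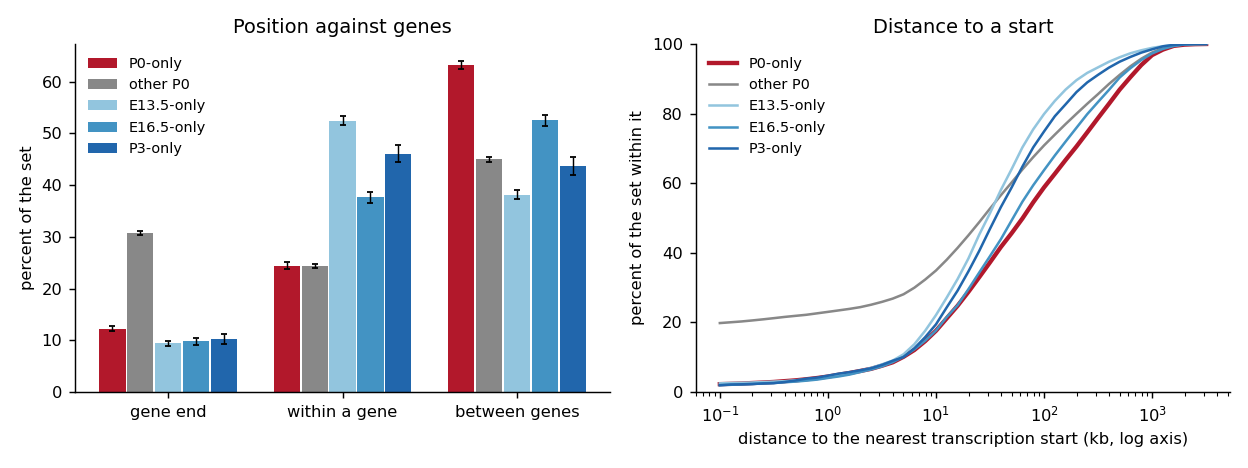
Left, percent of P0-only peaks, other P0 peaks and the peaks private to E13.5, E16.5 and P3 at gene ends, within genes and between genes, with 95% Wilson intervals over peaks; P0-only peaks have the highest bar between genes (63.3%). Right, cumulative percent of each set within a given distance of a transcription start (log axis); the curve of P0-only peaks lies lowest beyond 10 kb, with a median of 63.4 kb.

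The X chromosome held more P0-only peaks than its share of the list. Of 3034 P0 peaks on X, 990 (32.6%, 31.0 to 34.3) were P0-only, against 20.01% on the autosomes (19.7 to 20.3), a difference of 12.6 points (10.9 to 14.3). Single autosomes ran from 17.2% on chromosome 14 to 26.0% on chromosome 18, with 25.6% on chromosome 19 and 25.1% on chromosome 15, so the X interval lay above each of them. On Y, 15 of 31 P0 peaks were P0-only. The other stages showed the opposite order: X was below the autosomes for P3-only peaks, with a difference of -3.19 points (-4.26 to -1.84), and for E16.5-only peaks, with -2.305 points (-3.73 to -0.73). For E13.5-only peaks the difference was -2.74 points with an interval that included 0 (-5.36 to 0.02). X peaks made up 4.51% of the P0 list, 2.65% of the P3 list, 3.66% and 4.05% of the E16.5 lists and 2.70% and 2.49% of the E13.5 lists. Chromosomes also differed in the opposite sense between P0 and E16.5. Chromosome 14 had the lowest P0-only share and the highest E16.5-only share of the autosomes (19.1%), while chromosomes 18 and 19 had E16.5-only shares of 9.85% and 7.30%. Each private set leaves out peaks of the other stages' lists, so these opposite orders, also that on X, are tied by the rule. The E16.5 heterozygous and P0 lists held 3041 and 3224 peaks on chromosome 14, 1218 and 2034 on 18 and 918 and 1500 on 19. On X they held 1966 and 3034.

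P0-only peaks were more frequent in gene-poor DNA, and most of all in gene-poor parts of X. In 1 Mb windows with 0 or 1 protein-coding gene, 27.0% of P0 peaks were P0-only (26.4 to 27.7), falling through 22.5%, 17.99% and 16.8% to 15.3% (14.6 to 16.0) in windows with 20 or more. On X the share fell from 44.1% (41.1 to 47.2) to 6.38% (3.39 to 11.7, 9 of 141 peaks). On the autosomes it fell from 26.0% to 15.4%. X thus stood above the autosomes in windows with 0 or 1 gene, with 2 to 4 genes (36.1% against 21.2%) and with 5 to 9 genes (24.5% against 17.7%). In windows with 10 to 19 genes the intervals overlapped (13.8% against 16.9%), and with 20 or more genes X stood below. The classes of gene density on X were added after the values of the whole chromosome were seen. Sex chromosome dosage, the share of other cells and base composition were not measured, and their part in this difference was not tested.

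**Figure D3:**
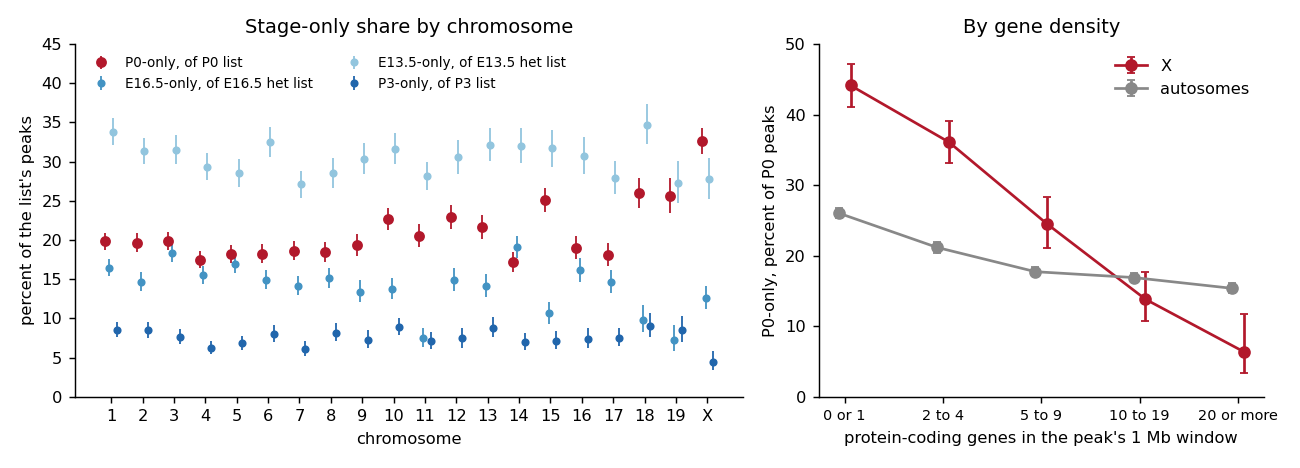
Left, percent of each list's peaks that are private to its stage, by chromosome, with 95% Wilson intervals over peaks; P0-only (red) is highest on X at 32.6%, where the sets private to other stages are not raised. Right, P0-only percent of P0 peaks by the number of protein-coding genes in the peak's 1 Mb window, on X (red) and autosomes (grey); X falls from 44.1% to 6.38% and autosomes from 26.0% to 15.4%.

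P0-only peaks came mostly singly, with some dense stretches. Along the P0 list, 54.9% of them had a shared P0 peak on both sides, and 25.2% came in pairs. Another P0 peak lay within 10 kb of 44.3% of P0-only peaks (43.5 to 45.1) and of 40.1% of other P0 peaks (39.7 to 40.5). The longest unbroken run was 10 P0-only peaks in 136 kb at chr9:93477499-93613895, a stretch without a protein-coding gene. A run of 9 lay on X at chrX:15663276-16052370, also without one, and runs of 8 included stretches of Dmd on X and of Dpp10 on chromosome 1.

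Several of the 1 Mb windows with most P0-only peaks hold clusters of chemosensory genes or no protein-coding gene at all. The highest count, 33, was reached in 3 windows. At 61 to 62 Mb of chromosome 16 (chr16:61000001-62000000), which holds no protein-coding gene, 33 of 64 P0 peaks were P0-only, beside 21 peaks at P3, 22 and 32 at E16.5 and 1 and 3 at E13.5. At chr17:39000001-40000000, 33 of 54 were P0-only, and the 6 protein-coding genes there all encode exocrine gland-secreted peptides, pheromones of the mouse (Esp15, Esp16, Esp18, Esp23, Esp24 and Esp38). At chr7:85000001-86000000, 33 of 63 were P0-only in a cluster of 9 vomeronasal receptor genes, Vmn2r66 to Vmn2r74, which detect pheromones. The window next to the Esp genes, chr17:38000001-39000000, held 30 of 59, among odorant receptor and further Esp genes. On X, chrX:127000001-128000000 held 31 of 57 and chrX:119000001-120000000 held 29 of 59. In each of these 6 windows the E13.5 lists had 0 to 3 peaks.

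The protein-coding genes with most P0-only peaks were long, and several of them act in neurons or muscle. These 10 genes were chosen by this count, so the shares describe them without a test. Dmd, which encodes dystrophin, held 34 P0-only peaks of 55 P0 peaks (61.8%, 48.6 to 73.5) across 2390 kb, where P3 had 3 peaks and E16.5 15 and 22. Csmd3, a large membrane protein of neurons, held 27 of 61 and Il1rapl1, a synaptic receptor gene on X, 21 of 45. Pcdh15, a cadherin of hair cells in the inner ear, held 16 of 28 (57.1%, 39.1 to 73.5). Ptprd, a receptor phosphatase of synapses, held 19 of 72, Lrp1b 18 of 77 and Lrrc4c 18 of 54. The last 3 of the 10 genes, Gm37013 (16 of 55), Gm38666 and Gm38667 (15 of 52 each), are overlapping gene models on chromosome 18 that contain 54, 51 and 51 clustered protocadherin genes and share their peaks.

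Per length, genes of 1.64 kb (G6pd2) to 32.2 kb (Arhgap27) led among those with 3 or more P0-only peaks. They were chosen by this density, so their shares describe them without a test. G6pd2, an intronless copy of the gene for glucose-6-phosphate dehydrogenase, had 3 P0 peaks, all P0-only, at chr5:61803958-61804458, chr5:61809898-61810398 and chr5:61811719-61812219, and 0 peaks in each other list. Vmn2r70 likewise had 3 of 3 and none in another list. Lrit3 had 3 of 3 with 1 peak in another list, that of E13.5 heterozygous cells, and Ggt5 had 3 of 3 with 1 peak each in that list, the E16.5 knockout list and the P3 list. Arhgap27 had 4 of 5. Otop2 and Otop3, neighbouring genes of the otopetrin proton channel family, had 3 of 4 each and share the peak at chr11:115334429-115334929. Gna15, a G protein subunit of blood cells, and Pcdh1 had 3 of 4. Notch4, a Notch receptor of endothelium, had 3 of 5, at chr17:34559764-34560264, chr17:34561073-34561573 and chr17:34591960-34592460. The last of these lies downstream of Notch4 and was centred 49 bp from the start of Pbx2, a homeobox gene.

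Genes of DNA methylation and heterochromatin had no P0-only peak, and those of the piRNA pathway, the cell cycle and signalling had 1 to 3. A gene was counted when a P0-only peak lay within it or up to 5 kb beyond its bounds, which held for 3018 of 21887 protein-coding genes (13.8%). Of the P0 peaks near protein-coding genes, 3777 of 28956 (13.0%, 12.7 to 13.4) were P0-only. Among 24 genes of DNA methylation and heterochromatin, all of which had a P0 peak, 0 of 44 P0 peaks were P0-only. The Wilson upper bound of 8.03% lies under 13.0%. The lists were not matched to this background for distance to a start, near which few P0-only peaks lay. Among 21 genes of the piRNA pathway, which makes the small RNAs that direct transposon silencing, 1 of 29 peaks was P0-only, downstream of Tdrd9 at chr12:112069358-112069858. Cell cycle genes had 2 of 40, within E2f2 and Ccnd1. Genes of TGF-beta, BMP, FGF and WNT signalling had 3 of 58, within Smad7, an inhibitor of TGF-beta signalling, Tcf7l2, a WNT effector, and the BMP receptor gene Bmpr1b. The intervals of the last 3 lists included the 13.0% near all protein-coding genes.

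Genes of spermatogonia had P0-only peaks at 6 of 25 genes for stem cell self-renewal (24%) and 4 of 20 for differentiation (20%), against 13.8% of all protein-coding genes. The first group comprised Gfra1, the co-receptor for the niche factor GDNF, Neurog3, T, Lin28a, Utf1 and Zbtb16. The Gfra1 peak (chr19:58454292-58454792) was centred 856 bp from a start, inside the gene, with a peak of another list 778 bp away. The Neurog3 peak (chr10:62133844-62134344) was the only P0 peak of that gene and was centred 1004 bp from its start. The T peak (chr17:8438390-8438890) was likewise the only one. The second group comprised the retinoic acid receptor gene Rara, the retinoid X receptor genes Rxrb and Rxrg, and Stra6, which encodes a receptor for retinol binding protein. The Rxrb peak (chr17:34039069-34039569) lay downstream of that gene and 181 bp from the start of the collagen gene Col11a2. By peaks, 6 of 36 (16.7%, 7.87 to 31.9) and 4 of 37 (10.8%, 4.29 to 24.7) P0 peaks of these lists were P0-only, with intervals that included 13.0%. Peaks private to other stages lay at these genes too. E13.5-only peaks were at 10 of 25 and 7 of 20, E16.5-only at 5 and 8, and P3-only at 4 and 3. Of all protein-coding genes, 20.7%, 11.3% and 6.45% had such peaks.

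Meiosis, pluripotency and migration genes had shares whose intervals included 13.0%. Meiosis genes had 4 of 28 P0 peaks P0-only (5.70 to 31.5), in Sycp1 and Sycp3, Syce3 and Smc1b, which encode parts of the synaptonemal complex and cohesin. The Sycp3 peak (chr10:88460412-88460912) was centred 1075 bp from the start, 544 bp from another list's peak. Pluripotency genes had 5 of 36 (6.08 to 28.7), near Esrrb, Dppa3, Dppa4, Sox2 and Utf1, and the peak within Dppa4 (chr16:48283356-48283856) was its only P0 peak. Migration and adhesion genes had 9 of 67 (7.23 to 23.6), with 4 in Ncam2 and 3 in Ephb2. Together, 57 of the 254 genes in the 11 lists had a P0-only peak (22.4%), against 13.8% of all protein-coding genes. The lists differ from the background in gene length and in the number of peaks per gene, so the count of genes and the share of peaks need not run together.

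Synaptic and neuronal adhesion genes held most of the listed peaks. In 21 of these 24 genes there was a P0-only peak, and 198 of 680 P0 peaks (29.1%, 25.8 to 32.6) were P0-only. The median length of these genes was 1241 kb against 17.2 kb for all protein-coding genes. In gene-poor windows in general, 27.0% of P0 peaks were P0-only. Within the list, Cntnap5a, a gene of the contactin-associated protein family, held 12 of 29 (25.5 to 59.3), Cntnap2 12 of 48 (14.9 to 38.8) and Csmd1 1 of 18 (0.988 to 25.8), with overlapping intervals. For the stages beside P0, 96 of 263 peaks of these genes were E13.5-only (36.5%, against 26.0% near all protein-coding genes), 80 of 502 E16.5-only (15.9% against 12.02%) and 24 of 311 P3-only (7.72% against 6.78%).

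**Figure D4:**
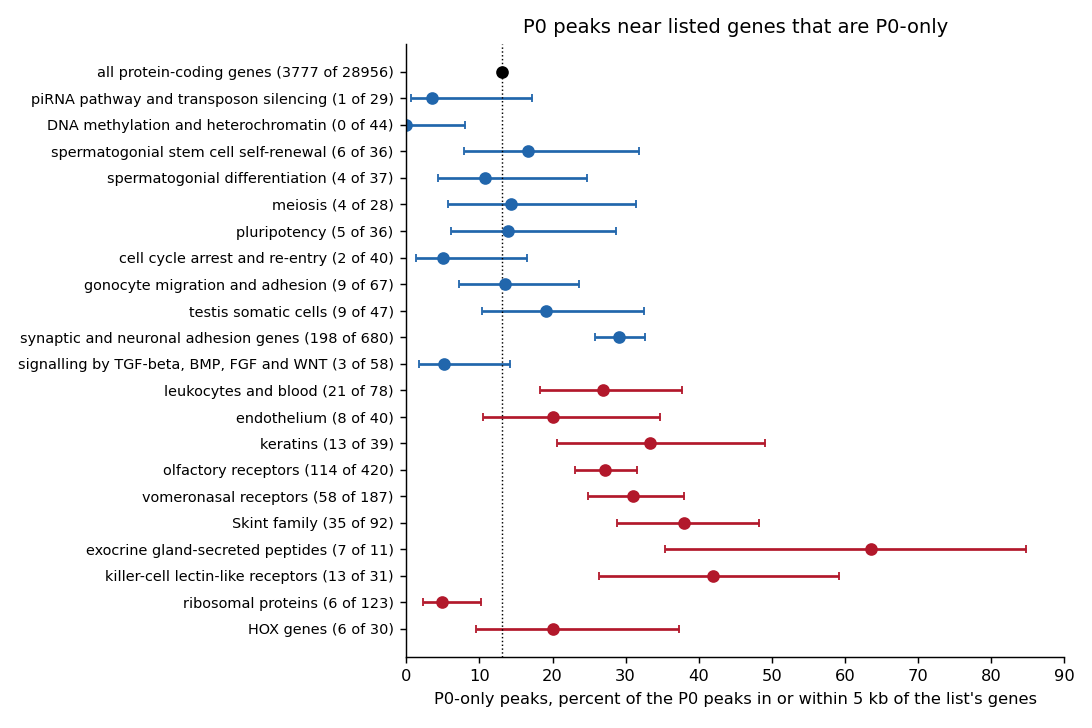
P0-only peaks as a percent of the P0 peaks in or within 5 kb of the genes of each list (points, with 95% Wilson intervals over peaks, counts in parentheses); black is all protein-coding genes (13.0%, dotted line), blue the 11 lists of germ cell, somatic, signalling and synaptic genes and red the 10 lists added after values were seen. Synaptic genes (29.1%) and the receptor and blood lists lie to the right of the line, ribosomal proteins (4.88%) to the left.

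Markers were examined to see which cells the lists reflect. A start of 6 of the 7 germ cell markers with a start in the table had a P0 peak within 1000 bp (all but Nanos2), and the count was 6 in every other list. Of 15 markers of testis somatic cells with a start, 7 had a peak at P0, against 5 in each E13.5 list, 8 and 7 at E16.5 and 6 at P3, and none had a P0-only peak there. Of 42 leukocyte and blood genes, 16 had one at P0, against 7 in each E13.5 list, 9 and 11 at E16.5 and 7 at P3. For comparison, 63.8% of all 17492 protein-coding genes with a start had one at P0 and 59.98% at P3. These shares were 60.5% and 60.9% in the E13.5 lists and 61.5% and 62.3% in the E16.5 lists. Blood genes and testis somatic markers lay below the share of all genes in every list, and germ cell markers above it. The leukocyte and blood list was made after blood genes had been seen among the promoters. An endothelial list, also added after values were seen, had 11 genes with a start. Of these, 8 had a peak at P0, against 6 and 7 at E13.5, 7 in each E16.5 list and 6 at P3. P0-only peaks also lay within 1000 bp of a start at 1 germ cell marker (Sycp3) and 1 endothelial gene (Emcn).

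At 8 of these 42 blood genes a P0-only peak lay within 1000 bp of a start. Among all 17492 protein-coding genes with a start, 349 (2%) had such a peak. As the blood list was made after such genes were seen at these promoters, this comparison is a description and not a test. The 8 were Cd3e, Cd247, Cd8a and Lat of T cells, Cd72 of B cells, Fcer1g, the leukocyte actin-bundling gene Lcp1 and Hbb-bs, whose promoter is among those printed above. Of these, Lcp1 also had a peak within 1000 bp of a start in each of the other 5 lists, Cd8a had one in both E16.5 lists and Cd72 in the E16.5 knockout list, and the other 5 had none outside P0. For the sets private to other stages, the list had 0 E13.5-only, 1 E16.5-only and 1 P3-only gene, against 285, 211 and 81 of all protein-coding genes. Since the list was made with P0-only promoters known, this contrast between stages is a description too. Other defining genes of blood cells had no P0 peak at the start, among them Ptprc, which encodes CD45, Cd3d, Cd3g, Lck, Zap70, Itgam, Lyz2, Gata1, Klf1 and the alpha-globin genes Hba-a1 and Hba-a2. The Cd8a and Cd72 peaks were close to the limit of the rule, with a peak of another list 447 and 535 bp away. The Hbb-bs, Cd247 and Lat peaks were 20455, 7510 and 5986 bp from one. A bulk list does not tell a region open in a few cells from one weakly open in many, and the part of other cells in the P0 samples in these peaks was not tested.

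Within 5 kb of the genes, 21 of 78 P0 peaks of the blood list were P0-only (26.9%, 18.3 to 37.7). The list was made from genes seen among these peaks, so this share is a description. Endothelial genes had 8 of 40 (20%, 10.5 to 34.8), near Notch4 (including the peak at the Pbx2 start), Cdh5, Egfl7, Mmrn2 and Emcn, the last with a peak centred 212 bp from its start (chr3:137341040-137341540). Genes of testis somatic cells had 9 of 47 (19.1%, 10.4 to 32.5), including both P0 peaks of the endothelial cadherin gene Cdh5 and the only P0 peak of Tagln, a smooth muscle gene (chr9:45935734-45936234). The intervals of the endothelial and somatic lists included 13.0%.

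In several large gene families that are silent in most tissues the P0-only share was above the 13.0% near all protein-coding genes, and for odorant and vomeronasal receptors it was close to the 27.0% in windows with 0 or 1 protein-coding gene. These families were picked after the windows and genes above had been seen, so their shares describe the pattern and do not test it. Killer-cell lectin-like receptor genes had 13 of 31 P0 peaks P0-only (41.9%, 26.4 to 59.2), Skint genes, a family expressed in skin and thymus, 35 of 92 (38.0%, 28.8 to 48.3) and keratin genes 13 of 39 (33.3%, 20.6 to 49.02). Vomeronasal receptor genes had 58 of 187 (31.0%, 24.8 to 38.0) and odorant receptor genes 114 of 420 (27.1%, 23.1 to 31.6). Per gene the picture was sparser for odorant and vomeronasal receptors. Of these, 113 of 1110 and 47 of 353 genes had a P0-only peak, which is 10.2% and 13.3% against 13.8% of all protein-coding genes. Above that share were killer-cell lectin-like receptor genes (9 of 29, 31.0%), Skint genes (9 of 11, 81.8%) and keratin genes (13 of 53, 24.5%). Ribosomal protein genes, which are active in all cells, had 6 of 123 (4.88%, 2.25 to 10.2). Their private shares were low at the other stages too. They were 9.23% at E13.5 (against 26.0% near all protein-coding genes), 3.17% at E16.5 (against 12.02%) and 0.877% at P3 (against 6.78%). High private shares also occurred at other stages: 5 of 26 P3 peaks near keratin genes were P3-only (19.2%, against 6.78% near all protein-coding genes), 12 of 24 E13.5 peaks near vomeronasal receptor genes were E13.5-only (50% against 26.0%) and 3 of 7 E16.5 peaks near Esp genes were E16.5-only (42.9% against 12.02%). In the Skint family, 1 of 31 P3 peaks and 2 of 46 E16.5 peaks were private to their stage.

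At promoter windows themselves, keratins were the most frequent of these families. P0-only peaks met windows of 7 of 53 keratin genes: Krt25, Krt26, Krt28, Krt40, Krt71, Krt73 and Krt84. Most of these encode keratins of the hair and its inner root sheath. They met windows of only 5 of 1110 odorant receptor genes. One gene each was met among 15 Esp genes (Esp38), 97 ribosomal protein genes (Rpl4) and 39 HOX genes (Hoxd11). No vomeronasal receptor, Skint or killer-cell lectin-like receptor gene was met. These totals count all listed genes, including any without a window. Of the 254 genes in the 11 lists above, 182 have a window in the table and none of these windows met a P0-only peak, which is near the 1.04% of all windows. Other genes reached were Tnp1, a transition protein gene of late spermatids (chr1:73015631-73016131, centred 18 bp from the start), Epo, which encodes erythropoietin (chr5:137485614-137486114), and Il6 (chr5:30013107-30013607).

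The promoter windows under P0-only peaks were poor in CpG. CpG-rich windows, defined by a GC content of at least 55% and a CpG observed to expected ratio of at least 0.6, made up 39 of 342 (11.4%, 8.45 to 15.2) under P0-only peaks and 64.4% of the 12880 under other P0 peaks, a difference of -53.0 points (-56.1 to -49.1). Among windows without any P0 peak the share was 8.23%. Median GC content was 52.3% under P0-only peaks, 62.0% under other P0 peaks and 48.0% without a peak. The median CpG ratio was 0.404, 0.768 and 0.215 in the same order. By these measures the windows of P0-only peaks were nearer to the windows without a P0 peak than to those under other P0 peaks. Protein-coding genes owned 51.5% of the windows under P0-only peaks and 84.8% of those under other P0 peaks.

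Motif content followed the same division. In all, 13 motifs were searched on both strands, each for itself, so that overlapping letters may count for more than one motif. Motifs that hold a CpG were less frequent under P0-only than under other P0 peaks. The KLF motif GGGCGTG stood in 5.26% of windows (3.35 to 8.17) against 16.7%, with 8.44% over all 32851 windows. The ETS motif CCGGAAG stood in 10.5% (7.70 to 14.2) against 17.8%, with 8.86% over all windows. The CRE motif TGACGTCA stood in 0.292% (1 window) against 3.39%, with 1.79% over all windows. The E-box CACGTG stood in 6.14% (4.05 to 9.20) against 10.6%, with 7.15% over all windows. Several motifs without CpG were more frequent. The SOX motif ACAAAG stood in 21.1% (17.1 to 25.7) against 12.6%, with 18.7% over all windows. The AP-1 motif TGANTCA stood in 8.48% (5.97 to 11.9) against 4.11%, with 7.81% over all windows. The TEAD motif CATTCCA stood in 6.43% (4.29 to 9.55) against 2.62%, with 4.29% over all windows. For the KLF and CRE motifs the share over all windows lay above the interval under P0-only peaks, and for the other 5 it lay inside. The T-box motif AGGTGTGA stood in 2.05% against 0.745%, the GATA motif GATAAG in 6.73% against 4.39% and the motif AAGGTCA of NR5A and ESRR receptors in 4.68% against 2.68%. The box CCAAT stood in 35.4% against 38.9%, the POU octamer ATGCAAAT in 1.46% against 1.51% and the forkhead motif TGTTTAC in 2.34% under both sets. Over all windows the last 6 motifs stood in 1.28%, 7.44%, 4.72%, 37.4%, 1.74% and 3.65%. Presence of a motif describes the sequence and does not show binding. Only promoter windows were examined in this way, and the sequences of the distal peaks were not used here.

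**Figure D5:**
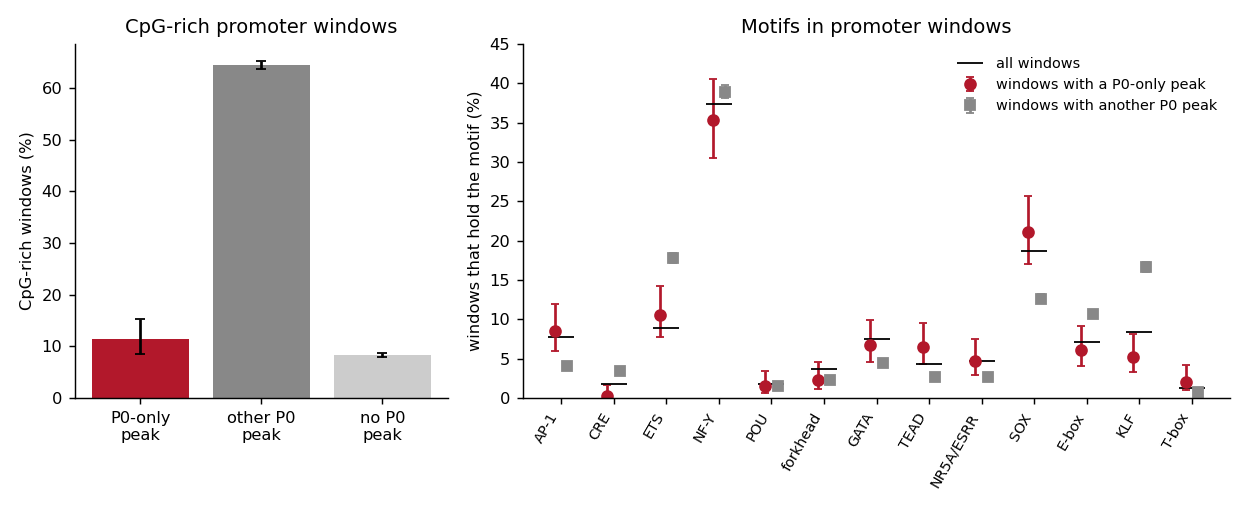
Left, percent of promoter windows that are CpG-rich under P0-only peaks (11.4%), under other P0 peaks (64.4%) and without a P0 peak (8.23%). Right, percent of windows that hold each of 13 motifs under P0-only peaks (red), under other P0 peaks (grey) and over all windows (black dash), with 95% Wilson intervals over windows; KLF, ETS and CRE are lower and SOX, AP-1 and TEAD higher under P0-only than under other P0 peaks.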

How the data were processed

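ATAC-seq peak lists of mouse testis germ cells were used. The authors deposited 1 list per stage and genotype with chromosome, start and end, and no other value. The submitters' processing notes name mm10, bcl2fastq 2.20, cutadapt 1.18, Bowtie2 2.3.4.1, deepTools 3.5.0 and HOMER 4.10; the peak caller's settings and the pooling of samples are not given in the sources used here. Nearly all peaks are 501 bp wide, so peak breadth cannot be seen. Peaks were set against RefSeq tables of GRCm38.p6 (49943 genes, 32851 promoter windows, none on chromosome 18, and 1005 miRNA hairpins). As a check of the build, 52.4% to 54.9% of protein-coding starts lay within 250 bp of a peak, and 2.16% to 3.21% after a shift of 10000 bp. Overlap counts were computed in Python 3.11.15 with numpy 2.4.6 and pandas 2.3.3 and equalled those of bedtools 2.31.1. In a check of the code, 2000 of 2000 and 6000 of 6000 peaks removed from a copy of the P0 list were recovered. The remaining peaks were shifted by less than the usual peak width, so this recovery was set by the design. It does not address depth or calling threshold. Named genes are the 10 with most P0-only peaks within 5 kb, the 10 with most per length among those with at least 3, listed genes with a P0-only peak, the 10 windows of 1 Mb with most, and the starts nearest to a peak centre. Genes outside this rule were named after their values were seen. The peaks and gene lists were chosen with earlier results of these data known. With 1 list per group no test over samples was possible, and peaks are not replicates, so no p-value is given.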

Additional observations from a re-analysis of the deposited data

How the results depend on the processing

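No paired analysis was possible because the lists have no values for single samples, and leaving out a replicate could not be run for that reason. A stricter peak threshold was not run, as peaks carry no score. Depth is unknown, so list length limits every count. Of 38 alternatives, 19 stayed within the interval of the reported share, or within 1.5 times a count, and 19 moved. The number of P0-only peaks ranged from 12843 (autosomes only) to 17437 (heterozygous and P3 lists alone). The gene-end share was 13.0% with a reciprocal overlap of 50%, 11.4% when peaks within 500 bp counted as shared, 9.44% with windows of 500 bp and 4.55% with protein-coding genes only. The share within genes was 25.2% on autosomes, 26.2% with windows of 500 bp and 19.1% with protein-coding genes only. Between genes it was 64.1% when peaks within 500 bp counted as shared, 62.2% on autosomes, 64.3% with windows of 500 bp and 76.3% with protein-coding genes only. The P0-only share on X and on autosomes was 34.7% and 22.3% with the reciprocal overlap and 41.8% and 25.2% against the heterozygous and P3 lists alone, and autosomes gave 18.6% when peaks within 500 bp counted as shared; X stayed above autosomes in each. Within 50 kb, 123 listed genes (48.4%) had a P0-only peak, against 42.8% of all protein-coding genes. Another P0 peak lay within 5 kb of 15.7% and within 20 kb of 73.5% of P0-only peaks.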
